A study of Mus musculus with 8 samples.

Results

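Mature B-cell surface and signalling genes were followed in sorted cells of mouse pups after in-utero transplantation (IUT). The set holds 9 named genes (Ms4a1, Cr2, Fcer2a, Cd22, Cd37, Fcrla, Blk, Bank1 and Btk) of the 52784 in the gene table, of which 25066 had a count in at least 1 library. All 9 were found by symbol and all had at least 745 counts in some library. Dams were C57BL/6 (CD11c-DTR), in which the promoter of Itgax, the CD11c gene, drives a diphtheria toxin (DT) receptor, and sires were BALB/c. Trafficked maternal cells (sorted by H2K-b) and recipient cells (sorted by H2K-d) came from F1 pups aged 1 week.

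Each origin had 4 libraries. Uninjected pups, labelled Control, had no IUT and came from dams given DT or saline, in proportions that the sources used here do not give. In DC control mIUT (labelled mIUT) the dam received saline and each fetus received 5000000 C57BL/6 bone marrow mononuclear cells at E14, and in DC control pIUT (labelled pIUT) these cells were BALB/c. In DC-depleted pIUT (labelled DT+pIUT) the dam received 5 ng/g DT at E13 before BALB/c cells were given. Donor cells in mIUT share H2K-b with maternal cells and those in pIUT share H2K-d with recipient cells, and F1 cells carry both haplotypes, so origin rests on the sort. Animals were pooled and each group is 1 library, so every difference given here is between libraries, has no replicate check and carries no p-value. Intervals are at the 95% level and cover counting error only. In bulk RNA of this kind, fewer B cells and less RNA per B cell cannot be told apart.

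Library totals were 38543457 to 47965130 counts on genes. Of the genes with at least 10 CPM (counts scaled to a common library size) in the other 7 libraries, 9.51% were under 1 CPM in the recipient uninjected library and 4.86% in the maternal DC control mIUT library, against 0% to 1.26% elsewhere. These libraries therefore stand apart, and folds that use the recipient uninjected library were also computed against recipient DC control mIUT. The labelled cell type is mononuclear cells, yet the 10 granulocyte genes summed to 163029 CPM in maternal and 264545 CPM in recipient DC control mIUT, against 1698 to 47436 CPM in the other libraries. Itgax had 409, 0, 611 and 1 counts in maternal uninjected, DC control mIUT, DC control pIUT and DC-depleted pIUT. In recipient cells, in the same order, it had 0, 73, 367 and 722 counts. The depletion acted on dendritic cells of the dam carrying the transgene, so Itgax RNA in sorted pup cells does not measure it directly.

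B cells arise from progenitors in the fetal liver and bone marrow, and gain a B-cell receptor made of immunoglobulin with the signalling chains encoded by Cd79a and Cd79b. As they mature they display co-receptors that set how strongly the receptor signals. Ms4a1 encodes CD20, a surface protein of B cells from the precursor to the mature stage. Cr2 encodes the complement receptors CD21 and CD35, which bind complement on antigen, and Fcer2a encodes CD23, a receptor for IgE. Cd22 is an inhibitory lectin of the receptor complex. Cd37 is a tetraspanin found on B cells and at lower levels on other leukocytes, and Fcrla is an intracellular Fc receptor-like protein of B cells. Inside the cell, Blk is a Src family kinase, Btk is the Tec family kinase that activates phospholipase C and is also used by myeloid cells, and Bank1 is a scaffold for such kinases.

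Within maternal cells all 9 members were highest in uninjected pups. Within recipient cells 6 of 9 were, while Cd37 and Btk were highest in mIUT and Blk in DC control pIUT. Summed over the 9 genes, the level was 3173 CPM in maternal uninjected cells, 194 in mIUT, 22.4 with DC control pIUT and 37.4 with DC-depleted pIUT. Recipient cells had 737 CPM in uninjected pups, then 344, 236 and 232 in the same order. Without Cd37 and Btk, which myeloid cells share, the maternal sums were 2396, 39.0, 0.138 and 11.9 CPM. The recipient sums were then 556, 31.4, 104 and 101 CPM, so that mIUT was the lowest. The maternal libraries spanned a far wider range than the recipient ones. Members at 0 counts numbered 0, 2, 6 and 4 in maternal cells and 1, 2, 2 and 1 in recipient cells. A count of 0 allows up to 3 counts, which is 0.0547 to 0.105 CPM depending on the library.

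**Figure D1:**
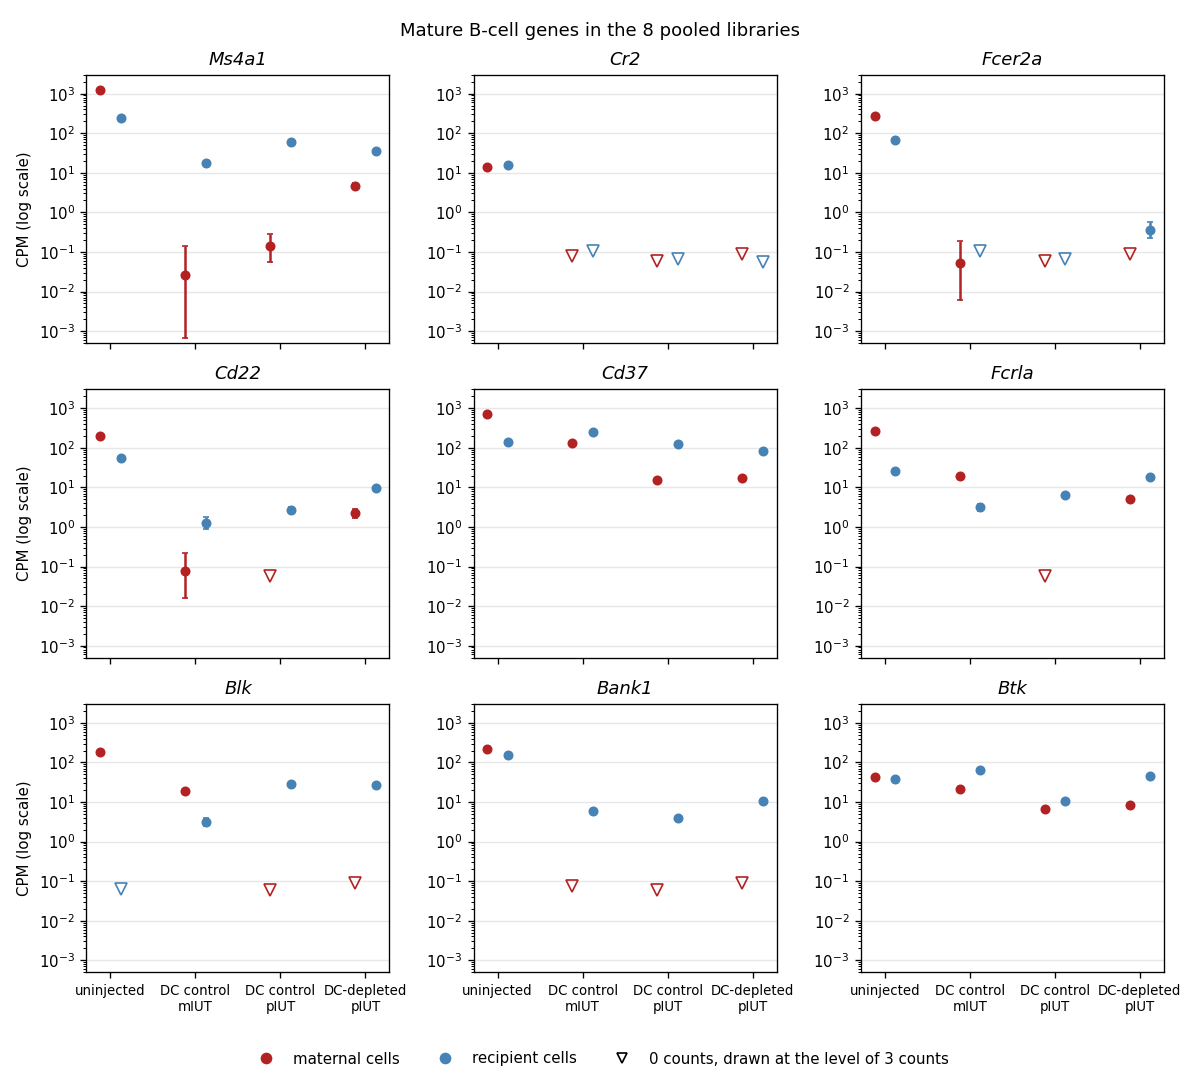
Level of each member in the 8 libraries, as CPM on a log scale. Points are pooled libraries of maternal (red) or recipient (blue) cells, bars are 95% Poisson intervals, and open triangles mark 0 counts at the level of 3 counts. Cr2 was above 0 in the uninjected libraries alone, while Cd37 and Btk were detected in all 8.

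Among the surface receptors, Ms4a1 (chr19:11227039-11243605, GRCm39, minus strand, as are all 9 genes) was the most abundant member of uninjected cells. It had 47865 counts in maternal uninjected cells, 1 in mIUT, 7 with DC control pIUT and 152 with DC-depleted pIUT. In recipient cells it had 11432, 515, 2779 and 1948 counts. Ms4a1 was thus nearly missing from the maternal DC control IUT libraries, yet present in every recipient library.

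The receptors of the mature follicular stage had the narrowest distribution. Cr2 (chr1:194819119-194859091) had 553 counts in maternal and 745 in recipient uninjected cells, or 14.2 and 15.4 CPM, and 0 in all 6 IUT libraries. Fcer2a (chr8:3731737-3744183) had 10664 counts in maternal uninjected cells, 2 in DC control mIUT and 0 in both pIUT libraries. In recipient cells Fcer2a had 3358 counts in uninjected pups, 0 in both DC control libraries and 20 in DC-depleted pIUT. Both genes were higher in each uninjected library than in the 6 IUT libraries, as were Fcmr and H2-Ob outside the set. The share of all genes with this pattern was not computed. In single comparisons with uninjected pups, 11.0% to 36.6% of all genes tested were at least 4-fold lower. Follicular dendritic cells also carry these receptors. Of the 9 genes listed for follicular dendritic cells and stroma, 4 were above 3 counts in each uninjected library, with summed levels of 164 CPM in maternal and 1240 CPM in recipient cells, against 1 to 7 genes and 19.6 to 64.6 CPM after IUT. Within that list Cxcl13 had 4985 counts in maternal and 55115 in recipient uninjected cells and 0 to 5 elsewhere, and Fdcsp was at 0 in all 8 libraries. The part of such cells in the Cr2 and Fcer2a levels was not tested.

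Cd22 (chr7:30564827-30579767) had 7886, 3, 0 and 73 counts in maternal uninjected, DC control mIUT, DC control pIUT and DC-depleted pIUT cells. In recipient cells it had 2683, 36, 121 and 518 counts. Fcrla (chr1:170745145-170755152) had 10493, 747, 0 and 167 counts in maternal cells, and 1249, 91, 299 and 997 in recipient cells. For both genes DC-depleted pIUT held more counts than DC control pIUT in each origin. Fcrla kept 747 counts in the maternal DC control mIUT library, where Ms4a1 and Cd22 had 1 and 3.

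Cd37 (chr7:44882849-44888546) had 28580, 5155, 778 and 566 counts in maternal cells and 6863, 7098, 5526 and 4640 in recipient cells. It was the member with the highest level per kilobase of exon in all 6 IUT libraries, whereas Ms4a1 led in both uninjected libraries (199 CPM per kilobase against 197 for Cd37 in maternal cells, and 38.2 against 38 in recipient cells). The size of this lead depended on the length used, since with the longest transcript in place of all exons, Ms4a1 had 400 and Cd37 280 CPM per kilobase in maternal uninjected cells.

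The kinases and the scaffold followed 3 different patterns. Btk (chrX:133443084-133484319) was detected everywhere, with 1668, 844, 347 and 279 counts in maternal cells and 1863, 1866, 475 and 2545 in recipient cells. Bank1 (chr3:135759124-136031827) had 8505 counts in maternal uninjected cells and 0 in the 3 maternal IUT libraries, whereas recipient cells had 7444, 167, 176 and 594. Blk (chr14:63610285-63654587) had 7247, 756, 0 and 0 counts in maternal cells. In recipient cells Blk was at 0 in uninjected pups and had 90, 1322 and 1445 counts after IUT. Among recipient libraries Blk was thus lowest where Bank1 was highest, whereas in maternal cells both were highest in uninjected pups.

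Promoter sequences are shown for 3 members with an E-box match whose window lies wholly before the annotated gene: Fcrla, Blk, the one member at 0 in recipient uninjected cells, and Bank1, which was at 0 in the maternal IUT libraries. Each window is the 250 bases before the start of the canonical transcript in GRCm39, read 5' to 3' on the minus strand, and capitals mark the E-box CAGGTG or its complement CACCTG. The windows are chr1:170755153-170755402, chr14:63654588-63654837 and chr3:136031828-136032077.
Fcrla: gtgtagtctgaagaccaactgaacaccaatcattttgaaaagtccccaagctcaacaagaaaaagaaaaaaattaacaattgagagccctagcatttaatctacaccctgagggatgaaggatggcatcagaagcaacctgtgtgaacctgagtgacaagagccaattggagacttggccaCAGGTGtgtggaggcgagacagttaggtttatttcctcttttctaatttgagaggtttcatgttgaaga
Blk: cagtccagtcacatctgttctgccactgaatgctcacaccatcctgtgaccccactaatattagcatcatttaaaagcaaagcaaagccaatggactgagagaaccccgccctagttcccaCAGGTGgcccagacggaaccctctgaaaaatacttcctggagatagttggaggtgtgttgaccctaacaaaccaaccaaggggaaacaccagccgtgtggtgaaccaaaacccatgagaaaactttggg
Bank1: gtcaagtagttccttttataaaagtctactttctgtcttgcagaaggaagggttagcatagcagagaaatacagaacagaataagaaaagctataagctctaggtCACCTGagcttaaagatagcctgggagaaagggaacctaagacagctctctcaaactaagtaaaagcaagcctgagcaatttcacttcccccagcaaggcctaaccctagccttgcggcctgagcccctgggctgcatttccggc

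The E-box, a site bound by E proteins among other factors, was searched on both strands and lay in 6 of the 9 member windows, against 17.7% of 21770 protein-coding promoters of the same length. Positions are given for 5 of these. The match began 69 bases before the start of Fcrla, 129 before Blk and 145 before Bank1. Further matches were in the windows of Cr2 (197 bases before the start) and Cd37 (174 bases). The octamer ATGCAAAT was in 0 of 9 windows and 1.49% of all promoters, the EBF palindrome (TCCC and GGGA with 2 free bases between) in 0 of 9 and 0.882%, and the PU.1 core GAGGAAGT in 1 of 9 (Cd37) and 2.08%. No letters of one motif overlap another in the Cd37 window. A match describes the letters in the window and was not tested as a binding site.

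The first comparison asked how each kind of IUT differed from no injection in trafficked maternal cells. In DC control mIUT, 8 of 9 members were at least 4-fold lower than in uninjected pups and 0 were higher, where 36.6% of the 14404 genes tested (those with at least 10 counts in 1 of the 2 libraries) were lower and 18.0% higher. Ms4a1 was 47626-fold lower (8548 to 1881180), from a single count. Bank1 was at least 2821-fold lower and Cr2 at least 183-fold lower, as bounds against the floor of 3 counts in that library. In the 4 members that kept 747 counts or more, Fcrla was 14-fold lower (13 to 15.1), Blk 9.54-fold (8.85 to 10.3), Cd37 5.52-fold (5.36 to 5.68) and Btk 1.97-fold (1.81 to 2.14). The members thus split into 4 with moderate folds and 5 at 3 counts or fewer. The folds of the B-lineage reference genes were nearer the former, since Cd79a was 23.2-fold and Cd79b 12.5-fold lower, although Pax5, a master regulator of the lineage, was at 0 against 161 counts.

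After DC control pIUT, all 9 members were at least 4-fold lower in maternal cells (background 23.7% lower, 24.3% higher). The folds ran from 6.25 for Btk (5.56 to 7.03) and 47.8 for Cd37 (44.5 to 51.3) to 8888 for Ms4a1 (4314 to 22108). The other 6 members were at 0, with bounds from at least 240-fold for Cr2 to at least 4621-fold for Fcer2a. Cd79a, at 441 counts, was 284-fold lower and Cd79b, at 1665, was 68.0-fold lower, and the bounds of the members at 0 exceeded both folds except that of Cr2. Genes of other lymphocytes were lower too: all 10 T-cell genes, all 4 gamma-delta T-cell genes tested and all 6 NK-cell genes were at least 4-fold lower, with T-cell sums of 2795 CPM in uninjected and 156 CPM in DC control pIUT cells. Of 9 housekeeping genes 2 were lower, with a median log2 fold of -1.20. In maternal mIUT and DC-depleted pIUT, 7 of 10 T-cell and all 6 NK-cell genes were lower, as were 1 and 3 of the 9 housekeeping genes. Genes of other cells were lower as well. In DC control pIUT these were all 5 mast cell and basophil genes tested and 5 of 6 megakaryocyte genes. In mIUT they were all 5, all 6 and 8 of 9 erythroid genes, with 9 of 10 granulocyte genes higher. In DC-depleted pIUT they were 4 of 6 (1 higher) and 3 of 6. The part of these cells in the members' levels was not tested.

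In DC-depleted pIUT, all 9 members were again at least 4-fold lower than in uninjected maternal cells (background 26.3% lower, 23.6% higher). Btk was 5.07-fold lower (4.47 to 5.78), Cd37 42.8-fold (39.4 to 46.6), Fcrla 53.3-fold (45.8 to 62.5), Cd22 91.7-fold (72.8 to 117) and Ms4a1 267-fold (228 to 315). Cr2, Fcer2a, Blk and Bank1 were at 0. Over the members the median log2 fold was -7.52, -11.74 and -7.29 for mIUT, DC control pIUT and DC-depleted pIUT, with bounds counted at the bound, beside -0.60, 0.05 and -0.02 over all genes tested. All 3 comparisons share the maternal uninjected library, which had the highest level of 7 of the 9 members among the 8 libraries.

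**Figure D2:**
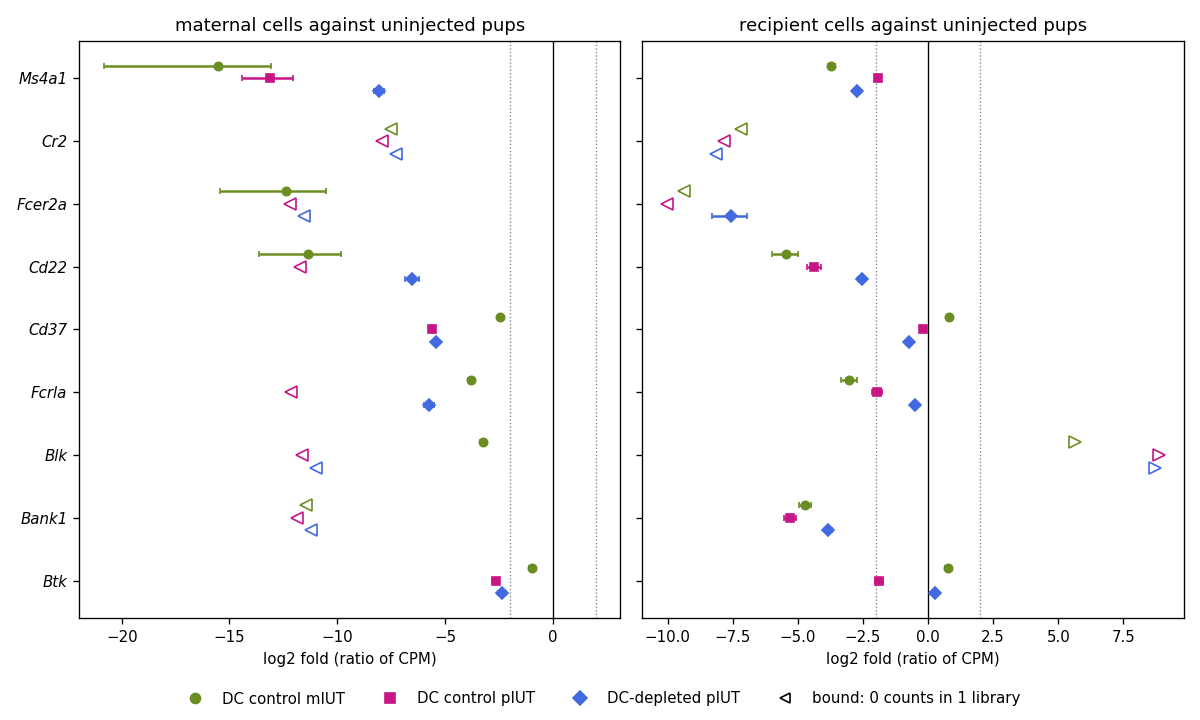
Log2 fold of each member against uninjected pups in maternal (left) and recipient (right) cells, with 95% counting intervals. Open arrowheads are bounds where a library had 0 counts, pointing away from 0, and dotted lines mark 4-fold. The 9 maternal rows lie left of 0 in all 3 comparisons, while in recipient cells Cd37 and Btk stay within 4-fold and Blk lies right of 0.

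In recipient cells the same question gave smaller and less uniform differences. Other lineages differed between these libraries too. The 9 erythroid genes summed to 92581 CPM in uninjected pups and to 158, 29435 and 19450 CPM after mIUT, DC control pIUT and DC-depleted pIUT, with 8, 5 and 6 of them at least 4-fold lower. The 10 T-cell genes summed to 727, 723, 3903 and 950 CPM, with 5 at least 4-fold higher in DC control pIUT. The part of these cells in the members' levels was not tested. After DC control mIUT, 6 of 9 members were at least 4-fold lower and 1 was higher (background 17.9% lower, 45.0% higher). Cd22 was 44.2-fold lower (31.8 to 63.2), Bank1 26.4-fold (22.7 to 31.0), Ms4a1 13.2-fold (12 to 14.4) and Fcrla 8.14-fold (6.57 to 10.2). Cr2 was at least 147-fold and Fcer2a at least 664-fold lower. Cd37 was 1.74-fold higher (1.69 to 1.80) and Btk 1.69-fold higher (1.58 to 1.80), within the 4-fold limit.

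After DC control pIUT, 4 of 9 members were at least 4-fold lower (Cr2, Fcer2a, Cd22 and Bank1) and Blk was higher, beside a background of 13.4% lower and 45.4% higher. Bank1 was 39.5-fold lower (34.0 to 46.1) and Cd22 20.7-fold lower (17.3 to 25.1). Ms4a1 at 3.84-fold lower (3.69 to 4.01), Fcrla at 3.90-fold (3.44 to 4.44) and Btk at 3.66-fold (3.31 to 4.06) lay just inside the limit, and with DESeq2 size factors 7 members were called lower. Cd37 was 1.16-fold lower (1.12 to 1.20).

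After DC-depleted pIUT, 5 of 9 members were at least 4-fold lower (background 11.0%) and Blk was again higher (background 47.2%). Fcer2a was 190-fold lower (123 to 312), Bank1 14.2-fold (13.1 to 15.5), Ms4a1 6.65-fold (6.34 to 6.98) and Cd22 5.87-fold (5.34 to 6.46), and Cr2 at least 281-fold. Fcrla was 1.42-fold lower (1.31 to 1.54). Btk was 1.21-fold higher (1.13 to 1.28), a direction that DESeq2 size factors turn. The medians over the members were -3.72, -1.96 and -2.55 in mIUT, DC control pIUT and DC-depleted pIUT, beside 1.22, 1.36 and 1.69 over all genes tested.

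Blk was the only member with 0 counts in recipient uninjected cells, where Ms4a1 had 11432 and Cd79a 26045, though Pax5 had 1. Against the floor there, mIUT, DC control pIUT and DC-depleted pIUT were at least 50.6-fold, 472-fold and 425-fold higher. Blk is also used by gamma-delta T cells. Of 5 gamma-delta T-cell genes in the table, 1 was above 3 counts in recipient uninjected cells (Trdc, 1804 counts) and all 5 after IUT, with summed levels of 37.3 CPM and 113 to 445 CPM. In maternal cells that list summed to 38, 66.4, 0 and 35.5 CPM in uninjected, DC control mIUT, DC control pIUT and DC-depleted pIUT. All 5 genes were at 0 in maternal DC control pIUT, where Blk was also at 0, but 4 of 5 were above 3 counts in maternal DC-depleted pIUT, where Blk was at 0 as well. The part of these cells in the Blk counts was not tested.

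Since the recipient uninjected library stood apart, recipient DC control mIUT was also used as the reference, a choice made after seeing the data. This contrast is between treatments and does not measure the difference from uninjected pups. Against recipient DC control mIUT, 1 of 9 members was at least 4-fold lower in DC control pIUT (Btk, 6.19-fold, 5.59 to 6.86). In the same pair 1 was higher (Blk, 9.33-fold, 7.53 to 11.7), where 13.9% of all genes were lower and 20.7% higher. Scaled by library size alone, that split became 0 lower and 2 higher. In DC-depleted pIUT, 0 were lower and 3 higher: Blk by 8.40-fold (6.79 to 10.5), Cd22 by 7.53-fold (5.37 to 10.9) and Fcrla by 5.73-fold (4.62 to 7.18), beside 13% lower and 25.8% higher in the background. Within the limit, Cd37 was 2.02-fold lower (1.95 to 2.10) in DC control and 2.92-fold lower (2.82 to 3.04) in DC-depleted pIUT, and Bank1 was 1.49-fold lower (1.20 to 1.86) in DC control pIUT, a direction that library size scaling turns, and 1.86-fold higher (1.56 to 2.22) in DC-depleted pIUT. Ms4a1 was 3.43-fold higher (3.12 to 3.77) in DC control and 1.98-fold higher (1.79 to 2.18) in DC-depleted pIUT, and Cd22 at 2.13-fold and Fcrla at 2.09-fold were also higher in DC control pIUT. Cr2 and Fcer2a were at 0 in recipient mIUT, so no lower level could be seen for them. Other cell types differed in these pairs too. In DC control and DC-depleted pIUT, 6 and 7 of 10 granulocyte genes were at least 4-fold lower and 0 and 3 higher. Of 9 erythroid genes 7 and 9 were higher, of 10 T-cell genes 9 and 1 (with 0 and 1 lower), and all 5 NK-cell genes tested in both. The part of these cells in the members' levels was not tested.

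The next comparison set DC-depleted against DC control pIUT. In maternal cells 3 of 9 members were at least 4-fold higher and 0 lower, where 24.9% of all genes tested were higher and 28.4% lower. Ms4a1 had 152 against 7 counts, a 33.3-fold difference (15.8 to 84.1). Cd22 was at least 37.3-fold and Fcrla at least 85.3-fold higher, from 0 counts each. Cd37 was 1.11-fold higher (0.998 to 1.24) and Btk 1.23-fold higher (1.05 to 1.45), and scaling by library size alone turned both directions. Cr2, Fcer2a, Blk and Bank1 were at 0 in both libraries and have no fold. Cd79a was 1.09-fold higher (0.938 to 1.26) and Cd79b 2.38-fold lower (2.15 to 2.65), so Ms4a1, Cd22 and Fcrla were higher where Cd79b was lower. Of 10 further mature B-cell genes tested here 3 were higher and 5 lower, with a median log2 fold of -1.50. All 4 gamma-delta T-cell genes tested, all 4 mast cell and basophil genes tested and 6 of 10 granulocyte genes were higher, and the part of those cells in the members' levels was not tested.

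In recipient cells 2 of 9 members were at least 4-fold higher in DC-depleted than in DC control pIUT, with 0 lower (background 14.6% higher, 7.21% lower). Btk was 4.41-fold higher (4.00 to 4.88) and Fcer2a at least 5.49-fold higher, from 0 to 20 counts. With DESeq2 size factors Btk fell within the limit (log2 fold 1.98), and on log2(CPM + 1) Fcer2a did (0.45). Cd22 at 3.53-fold (2.89 to 4.34), Bank1 at 2.78-fold (2.35 to 3.31) and Fcrla at 2.75-fold (2.41 to 3.14) were higher within the limit. Ms4a1 was 1.73-fold lower (1.63 to 1.84), Cd37 1.45-fold lower (1.39 to 1.5) and Blk 1.11-fold lower (1.03 to 1.20), the last a direction that library size scaling turns. Cr2 was at 0 in both. The monocyte and macrophage genes, of which all 10 were above 3 counts in both libraries, summed to 10842 CPM in DC control and 6006 CPM in DC-depleted pIUT, and the 10 granulocyte genes to 47436 and 20858 CPM. Gene by gene the monocyte and macrophage list ran against its sum, with 3 of 10 genes at least 4-fold higher, 0 lower and a median log2 fold of 1.71, since Lyz2 alone made up 10418 and 4890 CPM. Of the granulocyte genes 3 were higher and 6 lower. Megakaryocyte (5 of 6), plasma cell (4 of 7 tested) and erythroid genes (4 of 9) were higher and 6 of 10 T-cell genes lower. The part of these cells in the Btk and other differences was not tested.

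**Figure D3:**
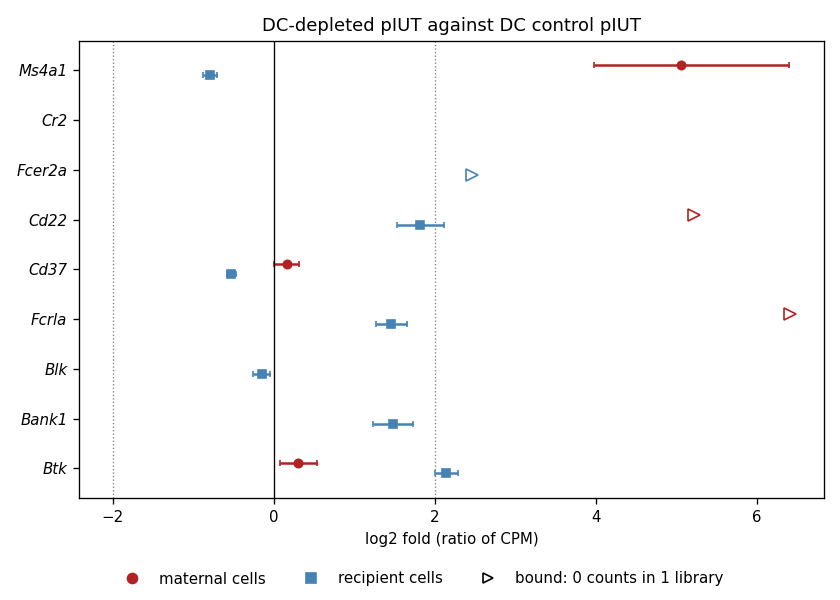
Log2 fold of each member in DC-depleted against DC control pIUT, for maternal (circles) and recipient (squares) cells, with 95% counting intervals and open arrowheads for bounds. Members with 3 counts or fewer in both libraries have no point, and dotted lines mark 4-fold. Ms4a1, Cd22 and Fcrla lie beyond 4-fold in maternal cells, and Btk and Fcer2a in recipient cells.

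Maternal and recipient cells of each condition were then compared. In uninjected pups 4 of 9 members were at least 4-fold higher in maternal cells (background 41.3%) and 0 lower (15.3%). Ms4a1 was 5.2-fold higher (5.10 to 5.31), Cd37 5.18-fold (5.04 to 5.31), Fcrla 10.4-fold (9.84 to 11.1) and Blk at least 3002-fold, while Bank1 differed by 1.42-fold and Cr2 by 1.08-fold in the other direction. After pIUT most members were lower in maternal cells, as were genes of other cell types. In DC control pIUT all 10 T-cell, all 5 gamma-delta T-cell, 9 of 10 granulocyte and all 6 mast cell and basophil genes were at least 4-fold lower in maternal cells and 5 of 9 erythroid genes higher. In DC-depleted pIUT all 5 NK-cell genes tested, all 6 mast cell and basophil genes and 8 of 10 conventional dendritic cell genes were lower and 8 of 9 erythroid genes higher. Their part in the members' levels was not tested. Of the members, 6 were at least 4-fold lower in maternal cells in DC control pIUT (background 25.3%), Ms4a1 by 445-fold (216 to 1107), and 0 were higher (19.1%). In DC-depleted pIUT 7 were lower (28.8%), Ms4a1 by 7.72-fold (6.54 to 9.17), and 0 higher (9.61%), a count of lower members that became 5 with DESeq2 size factors and 8 with library size alone. DC control mIUT was mixed, with Ms4a1, Cd22 and Bank1 lower (background 35.9%) and Fcrla and Blk higher in maternal cells (13.6%), by 6.08-fold (4.89 to 7.64) and 6.22-fold (4.99 to 7.83). Other cell types differed in this pair and in uninjected pups too. In DC control mIUT all 5 mast cell and basophil genes tested were lower and 6 of 8 erythroid genes higher (2 lower). In uninjected pups 5 of 6 NK-cell and all 5 mast cell and basophil genes tested were higher and 5 of 10 granulocyte genes lower. The part of these cells was not tested either.

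Relative to the receptor chains in the same library, which does not depend on scaling between libraries, Ms4a1 stood at 52.2% of the mean of Cd79a and Cd79b in maternal and 59.5% in recipient uninjected cells. After mIUT, DC control pIUT and DC-depleted pIUT, recipient cells stood at 80.0% (72.1 to 88.6), 109% (104 to 115) and 43.0% (40.9 to 45.2). The share in maternal cells was 0.0180% (0.000457 to 0.101), 0.665% (0.267 to 1.37) and 39.5% (33.0 to 47.1) in the same order. Ms4a1 per receptor chain in maternal cells was therefore nearest the uninjected share in DC-depleted pIUT and far below it in the DC control IUT libraries. Blk and Bank1, at 7.9% and 9.27% in maternal uninjected cells, were at 0 in maternal DC-depleted pIUT. The 2 receptor chains were uneven in maternal DC control pIUT, with 441 counts of Cd79a and 1665 of Cd79b. Fcrla gave 11.4%, 13.5%, 0% and 43.4% in maternal and 6.50%, 14.1%, 11.8% and 22% in recipient cells. Cd22 gave 8.6%, 0.0541%, 0% and 19.0% in maternal and 14%, 5.59%, 4.76% and 11.4% in recipient cells.

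Fcer2a per receptor chain was 11.6% in maternal and 17.5% in recipient uninjected cells. It was 0.441% (0.270 to 0.682) in recipient DC-depleted pIUT and 0.0361% in maternal mIUT, and at 0 in the other 4 IUT libraries, where 3 counts would be 0.118% to 0.78%. Bank1 was at 38.7% in recipient uninjected cells and at 25.9%, 6.93% and 13.1% after IUT. Cr2, Fcer2a, Cd22 and Bank1 were thus lower per receptor chain in all 3 recipient IUT libraries than in uninjected recipient cells, whereas Fcrla and Blk were higher. Cd37 and Btk are also found in myeloid cells. In recipient DC control mIUT all 10 granulocyte and all 10 monocyte and macrophage genes were above 3 counts, with sums of 264545 and 35665 CPM, against 15688 and 27500 CPM in recipient uninjected cells. By gene, 7 granulocyte genes were at least 4-fold higher and 2 lower than in uninjected cells, whereas 6 monocyte and macrophage genes were lower and 2 higher, and Lyz2 made up 35300 CPM of that sum. In the recipient mIUT library Cd37 stood at 1102% (1038 to 1170) and Btk at 290% (270 to 311) of the receptor chains, against 35.7% and 9.69% in recipient uninjected cells. The part of myeloid cells in these values was not tested.

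**Figure D4:**
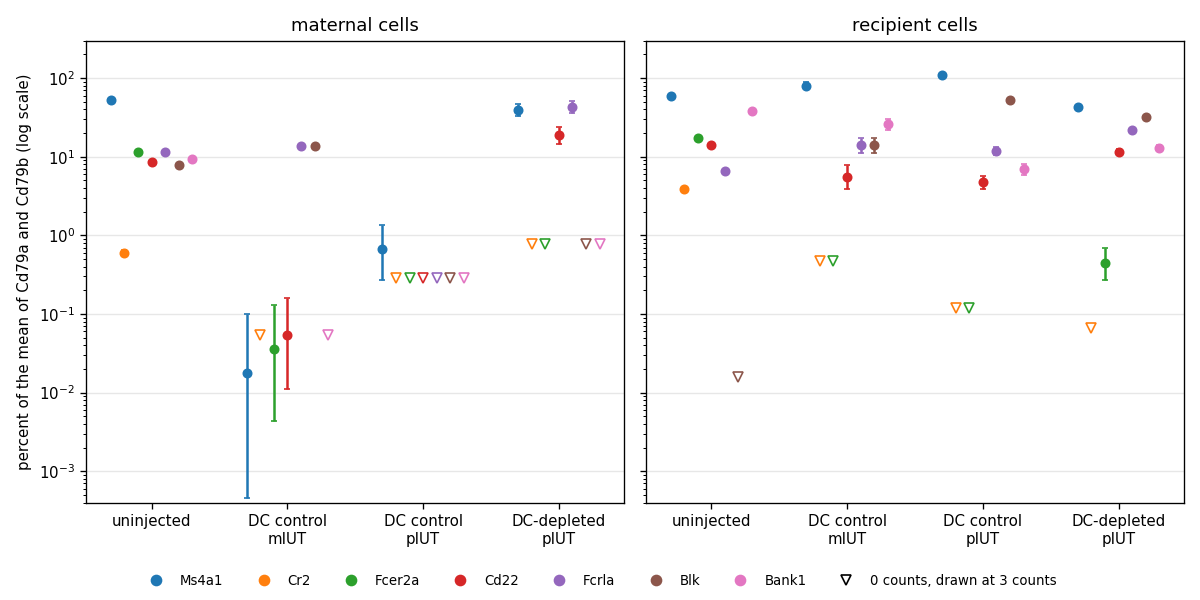
Level of 7 members as a percentage of the mean of Cd79a and Cd79b within each library, on a log scale, in maternal (left) and recipient (right) cells. Points are libraries with 95% counting intervals, and open triangles mark 0 counts at the level of 3 counts. Ms4a1 lies between 39.5% and 109% in 6 libraries and below 1% in maternal DC control mIUT and pIUT.

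Other genes of the lineage and pathway were counted by list. Over all genes, 36.6%, 23.7% and 26.3% were lower than in uninjected pups in maternal mIUT, DC control pIUT and DC-depleted pIUT. In recipient cells 17.9%, 13.4% and 11.0% were lower and 45.0%, 45.4% and 47.2% higher, and the shares of higher genes in the B-lineage and signalling lists there were below these. Of 10 B-lineage identity genes, 8, 9 and 10 were at least 4-fold lower in maternal mIUT, DC control pIUT and DC-depleted pIUT and 0 higher. In recipient cells 6 of 9, 5 of 9 and 2 of 10 tested were lower and 3, 3 and 4 higher, with Vpreb3 and Ebf1 or Spib among the higher ones. Of 14 further genes of the mature B-cell programme, 13, 13 and 14 were at least 4-fold lower than in uninjected pups in maternal mIUT, DC control pIUT and DC-depleted pIUT, with 0 higher in each. Fcmr, the IgM Fc receptor, had 35506 counts in maternal uninjected cells and 0 in both DC control libraries. In recipient cells 9, 8 and 8 of 14 were lower and 1 higher each time, with the chemokine receptor gene Cxcr5 at 97.4-fold, 157-fold and 63.0-fold lower. Icosl was the one higher gene, from 0 counts in recipient uninjected cells. The median log2 folds of this list were -8.87, -7.01 and -8.46 in maternal cells and -4.09, -2.54 and -2.29 in recipient cells.

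Proximal B-cell receptor signalling genes, many of them shared with other leukocytes, differed less. Of 18, 8, 6 and 16 were at least 4-fold lower in maternal mIUT, DC control pIUT and DC-depleted pIUT, and Itpr1 in DC control pIUT was the only higher one. Prkcb, a protein kinase C downstream of the receptor, had 5893 counts in maternal uninjected cells, 2742 with DC control pIUT and 0 with DC-depleted pIUT. Directly between these pIUT libraries, 12 of 17 signalling genes tested were lower under depletion and 0 higher (background 28.4% lower, 24.9% higher), with Pik3ap1 at 1 against 3954 counts, while Dapp1 at 3.04-fold and Cd81 at 1.73-fold were higher within the limit. In recipient cells 0 of 16, 3 of 17 and 1 of 18 signalling genes were lower than in uninjected pups and 6, 7 and 7 higher, among them Pik3ap1, which was at 0 in recipient uninjected cells as Blk was. Of 9 genes of receptor inhibition 2, 4 and 8 were lower and 0 higher in maternal cells, with the inhibitory lectin gene Siglecg at least 1455-fold lower in DC control pIUT. In recipient cells 2, 1 and 1 were lower and 3 higher each time.

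Genes of early B cells ran the other way in recipient cells, set against the uninjected library that stood apart, and were mixed in maternal cells. Of the 8 in the table, 7 of 8, 6 of 7 and 8 of 8 tested were at least 4-fold higher in recipient mIUT, DC control pIUT and DC-depleted pIUT than in uninjected pups, and 0 lower, in comparisons where 45.0% to 47.2% of all genes were higher. Igll1, a surrogate light chain of precursor B cells, had 0 counts in both uninjected libraries. It had 2480, 329 and 117 counts in maternal and 43, 17 and 1917 in recipient cells after DC control mIUT, DC control pIUT and DC-depleted pIUT. Rag1 and Dntt, which T-cell precursors also use, had 2166 and 4527 counts in recipient DC control pIUT. In maternal cells 4 of 7, 3 of 6 and 5 of 8 early genes were higher and 2 lower each time (background 18.0%, 24.3% and 23.6% higher). Il7r was among the lower ones, with 2503 counts in maternal uninjected cells and 7, 0 and 0 after IUT in the same order. The early sum was 77.6 CPM in maternal uninjected cells, then 125, 195 and 25.8 CPM. Sox4 made up 166 of the 195 CPM in DC control pIUT. Libraries with few or no counts of Cr2 and Fcer2a thus also held transcripts of the precursor stage.

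**Figure D5:**
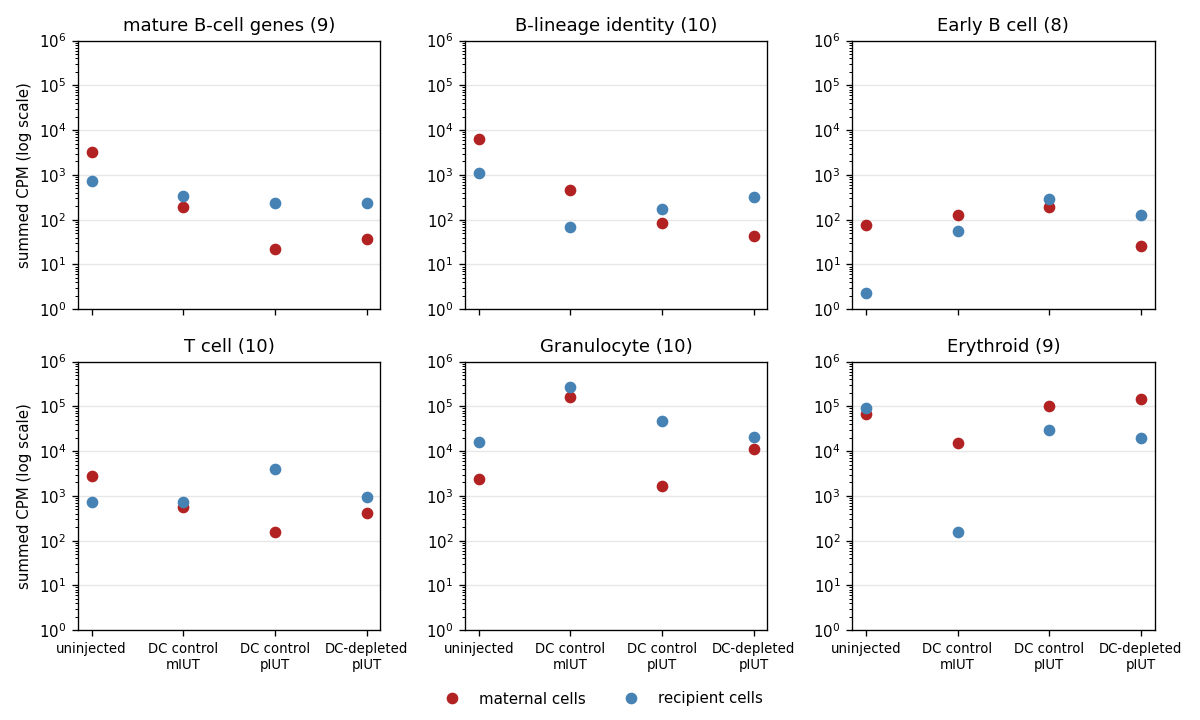
Summed CPM of 6 gene lists in the 8 libraries on a log scale, with the number of genes in the table in brackets and maternal cells in red and recipient cells in blue. The mature B-cell and B-lineage sums were highest in maternal uninjected cells, at 3173 and 6182 CPM. The early B-cell sum was lowest in recipient uninjected cells at 2.34 CPM, and the granulocyte sum highest in the 2 DC control mIUT libraries.

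Immunoglobulin reads gave another readout from the same RNA. Reads that MiXCR assigned to immunoglobulin clonotypes numbered 325484, 4577, 1995 and 915 in maternal uninjected, mIUT, DC control pIUT and DC-depleted pIUT cells. In recipient cells they numbered 56853, 1429, 7123 and 8673. Scaled as the gene counts were, these are 8364, 118, 39.4 and 27.7 on the CPM scale in maternal and 1176, 49.8, 158 and 158 in recipient cells. The order of the maternal libraries matched the summed members except for the pIUT pair, where the members were higher and immunoglobulin lower in DC-depleted pIUT. In recipient cells the orders differed, since mIUT had the second highest member sum and the lowest immunoglobulin, but without Cd37 and Btk mIUT was the lowest in both. In maternal DC-depleted pIUT the reads fell into 82 immunoglobulin clonotypes against 15 in DC control pIUT and 27 in DC control mIUT.

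Across the 8 libraries the genes most like the mean of the members in log2(CPM + 1) were H2-Aa (Pearson r = 0.976), H2-Ab1 (0.973), Gimap3 (0.972), H2-Ob (0.970), Fcmr (0.970), Ero1b (0.966), Igkc (0.965), Ctdnep1 (0.965), H2-Eb1 (0.965) and Iglc2 (0.965). They were ranked among 10384 genes with a mean of at least 5 CPM. Of the 10, 4 are MHC class II genes and 2 are immunoglobulin constant regions. H2-Aa was at 4229, 76.5, 13 and 13.8 CPM in maternal and 805, 43.0, 164 and 220 CPM in recipient cells. These correlations describe 8 points that share their normalization and the high maternal uninjected library, and without the 2 libraries that stood apart 3 of the 10 remained in the first 10. Within the set, the correlation of a member with the mean of the other 8 was 0.94 for Cd22, 0.93 for Bank1 and 0.90 for Ms4a1, and lowest for Btk at 0.61 and Blk at 0.48.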

How the data were processed

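RNA of sorted maternal and recipient cells was sequenced in 8 pooled libraries. The authors deposited 1 gene table of estimated counts, unnormalized output of salmon (nf-core pipeline, GRCm39, GENCODE annotation); the methods name featureCounts, and 8.641% of values are not whole. Also deposited by the authors were clonotype tables of MiXCR, in which a clone count gives the reads of each clonotype, with no molecular identifiers. The submitters' processing notes also name bcl2fastq and StringTie.

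Estimated counts were rounded. Symbols and positions came from a GENCODE annotation of GRCm39, which matched 97.99% of gene identifiers; 0 columns were left out. CPM used TMM factors over 8 libraries (edgeR 4.0.16, R 4.3.3). A fold is the ratio of CPM of 2 libraries with an exact conditional binomial interval at 95%. A count of 0 was set to 3 counts and gives a bound ("at least"), no fold is given where both counts were 3 or fewer, and a library at 1 to 3 counts has its ratio and interval. Genes with at least 10 counts in 1 of the 2 libraries were tested, and a gene was called at 4-fold. Percentages of genes called in each direction are the background. With 1 library a group no p-value was computed. The level per kilobase used all annotated exons. The depth of 38543457 to 47965130 counts sets the intervals.

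Named were the 9 members, Cd79a, Cd79b and Pax5, the 2 highest and 2 lowest folds of each of the other lists in a comparison (a selection is printed), the 10 genes most like the members, and Itgax. Fdcsp, outside this rule, was named after its values were seen. Some items that the rule names are not reported here. Members and lists were chosen with earlier results of these data known. Of 177 listed genes, 5 symbols were not matched and were left out. Alternatives were library size and DESeq2 1.42.0 size factors, edgeR fold changes at a dispersion of 0.4, log2 of CPM + 1, other folds (2 and 8) and filters, and other denominators. The calculation was tested on simulated data. Scripts ran in Python 3.11.15 with scipy 1.17.1, pandas 2.3.3, numpy 2.4.6 and, for figures, matplotlib 3.10.9.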

Additional observations from a re-analysis of the deposited data

Results flagged for a closer look

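Blk differed in opposite directions in the 2 origins when each IUT library was set against its uninjected library. The log2 fold was -3.25 in maternal and 5.66 in recipient cells for mIUT, -11.62 and 8.88 for DC control pIUT, and -11.00 and 8.73 for DC-depleted pIUT. With 1 library in each group the difference between origins was not tested. All of these but the maternal mIUT value are bounds, because Blk was at 0 counts in recipient uninjected cells and in both maternal pIUT libraries. The recipient uninjected library stood apart, with 9.51% of the genes high in the other 7 libraries under 1 CPM. Against it 45.0%, 45.4% and 47.2% of all genes tested were at least 4-fold higher in mIUT, DC control pIUT and DC-depleted pIUT. Set against recipient DC control mIUT, Blk was 9.33-fold higher in recipient DC control pIUT and 8.40-fold higher in DC-depleted pIUT.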

How the results depend on the processing

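No paired analysis was possible because each group has 1 library and no groups compared share 2 replicate numbers; a contrast of origins over the 4 conditions, which would average unlike treatments, was not run. No member fold that was called changed direction under another scaling, filter, fold or scale. Folds with recipient mIUT as reference form another contrast, between treatments, and do not measure the difference from uninjected pups. Without Cd37 and Btk, recipient mIUT had the lowest recipient sum, at 31.4 CPM. Against it 5 folds had the other sign. On the log2 scale Cd22 was at 1.09 in recipient DC control pIUT. In DC-depleted pIUT Ms4a1 was at 0.98, Fcer2a at 1.80 (a bound), Cd22 at 2.91 and Bank1 at 0.90. The medians over the members were then 1.06 in DC control and 1.39 in DC-depleted pIUT. Of 805 member folds under alternatives 641 stayed within their counting interval, as did 84 of 104 medians, 183 of 208 counts of members called and 156 of 208 shares of all genes called within their limits. Library size or DESeq2 size factors shift all folds of a comparison by -0.64 to 0.94 on the log2 scale.

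Requiring at least 10 counts in both libraries, chosen after seeing the data, removes members at or near 0 by construction. Against uninjected pups it left 3, 2 and 5 members lower in maternal DC control mIUT, DC control pIUT and DC-depleted pIUT, 2 lower in recipient DC control pIUT, and 0 higher in all 3 recipient comparisons. It left 0 higher in maternal and 1 in recipient cells for DC-depleted against DC control pIUT, and 0, 1 and 4 lower for maternal against recipient cells in DC control mIUT, DC control pIUT and DC-depleted pIUT.

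In recipient DC control pIUT against uninjected pups, 7 members were lower with DESeq2 size factors and 7 at 2-fold, since Ms4a1, Fcrla and Btk lay near 4-fold. For recipient DC-depleted against DC control pIUT, 1 was higher with DESeq2 size factors (Fcer2a, with Btk lost), 1 on log2(CPM + 1) (Btk, with Fcer2a lost), 5 at 2-fold and 0 at 8-fold. At 8-fold, 3 were lower against uninjected pups in recipient DC-depleted pIUT, and maternal against recipient cells gave 2 higher in uninjected pups, 0 higher in DC control mIUT and 2 lower in DC-depleted pIUT. With recipient mIUT in place of uninjected, 1 was lower in DC control pIUT, and 0 were lower and 3 higher in DC-depleted pIUT. TMM factors without the 2 libraries that stood apart, also an added alternative, gave the same counts of members in the 6 comparisons that use neither. Depth limits members at 0 counts to bounds, and those at 1 to 3 counts to ratios with wide counting intervals.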
